A study of Mus musculus with 21 samples.

Results

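The hepatic acute phase proteins considered here are the products of 9 genes, Saa1, Saa2, Orm1, Orm2, Orm3, Hp, Lbp, Itih4 and Apcs. They were chosen by name, and all 9 are among the 5298 genes of the liver expression values. RNA sequencing of liver from C57BL/6J mice gave 7 libraries, 1 per group, and the mouse macrophage-like cell line RAW264.7 gave 14 libraries, 2 per group. The values are TPM, a transcript level corrected for transcript length and scaled within each library.

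Wild-type (WT) mice received an intraperitoneal injection of PBS, of LPS at 30 mg/kg, or of LPS at 30 mg/kg together with CTM at 100 mg/kg. The labels do not spell out CTM. A further pair of WT libraries came from mice that received LPS with or without depletion of liver macrophages. For this pair the labels give neither the dose of LPS nor the agent used. TG2-KO mice, which lack transglutaminase 2 (gene Tgm2), received PBS or LPS at 30 mg/kg. RNA was extracted on 3 dates, 1 for the WT PBS, LPS and LPS plus CTM livers, 1 for the depletion pair and 1 for the TG2-KO pair. Genotype and date therefore cannot be told apart. The labels give no sex, age, time after injection, number of mice per library or construction of the knockout allele. The cells were WT with PBS, LPS (1 µg/mL) or LPS plus CTM (0.5 mM) at 24 h, and WT or Vim-KO, which targets the vimentin gene, with PBS or LPS at 12 h.

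The acute phase response is the change in plasma proteins that follows infection or injury. Macrophages that sense LPS, which comes from the outer membrane of Gram-negative bacteria, release interleukin 6, interleukin 1 and tumour necrosis factor, and hepatocytes answer through STAT3, C/EBP factors and NF-kB by making more of the positive acute phase proteins. In the mouse the serum amyloid A proteins and serum amyloid P (Apcs) are the classical strongly induced members.

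With 1 library per liver group there is no replicate error and no test of a liver difference. A difference is given as that of log2(TPM + 1), and a gene is counted as higher or lower where it differs by at least 1, which is 2-fold for a gene well above 1 TPM and understates the change of low genes such as Orm3. Because TPM carry no read counts, depth is unknown. The liver values hold only genes with a difference of at least 2-fold between LPS and PBS in WT liver (1459 higher and 3839 lower with LPS), so a difference of the members there was a condition of being listed. The targeted gene Tgm2 was at 0.74 and 15.5 TPM in TG2-KO liver with PBS and LPS, and at 35.7 to 429 TPM in the 5 WT livers. Of 14 hepatocyte markers only Cyp2e1, Tat and G6pc are listed, the first at 2051 to 5513 TPM. Albumin and transthyretin are not among the listed genes. In bulk tissue fewer cells of a type and less RNA per cell cannot be told apart.

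Saa1 and Saa2 encode the acute phase serum amyloid A apolipoproteins, which circulate on high-density lipoprotein and attract leukocytes. They are neighbours on mouse chromosome 7 in GRCm38, Saa1 on the minus strand from 46740497 to 46742980 and Saa2 on the plus strand from 46751790 to 46754313. Their transcripts were 94.4% identical over 606 aligned bases, and 26.8% of the 31-base words of the Saa1 transcript also occur in that of Saa2, so the division of reads between them is uncertain. The 250 bases before each start are from RefSeq (GRCm38.p6) and printed 5′ to 3′ on the strand of the gene. They are shown because the 2 genes were roughly alike over the 7 livers. Like all members, both genes were lowest in the WT PBS liver and highest in the macrophage-depleted LPS liver. How alike they are was not measured, and their LPS differences in TG2-KO liver were 1.55 (Saa1) and 2.76 (Saa2). Capitals mark matches to the C/EBP motif TTNNGNAA on either strand. The windows lie at chr7:46742981-46743230 for Saa1 and chr7:46751583-46751832 for Saa2, and were 95.6% identical over 249 aligned bases.
Saa1: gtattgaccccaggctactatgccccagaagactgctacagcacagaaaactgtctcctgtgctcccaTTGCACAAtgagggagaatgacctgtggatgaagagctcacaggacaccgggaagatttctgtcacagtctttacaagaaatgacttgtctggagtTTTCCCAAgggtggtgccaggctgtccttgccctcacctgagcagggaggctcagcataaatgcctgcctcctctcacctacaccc
Saa2: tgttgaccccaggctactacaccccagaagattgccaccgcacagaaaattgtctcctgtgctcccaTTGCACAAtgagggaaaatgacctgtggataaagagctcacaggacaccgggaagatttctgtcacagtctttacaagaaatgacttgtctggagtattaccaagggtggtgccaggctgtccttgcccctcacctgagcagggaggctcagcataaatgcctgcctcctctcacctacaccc
The match 183 bases before the start of Saa2 has the same letters as the one 182 bases before that of Saa1. Saa1 has a further match 86 bases before its start.

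In TPM, Saa1 was at 22.2 in the WT PBS liver, 3845 in the WT LPS liver, 3416 when CTM was added, 4442 and 8631 in the undepleted and depleted livers of the depletion pair, and 1172 and 3437 in the TG2-KO livers given PBS and LPS. The WT PBS liver stood far below every other library, and the TG2-KO PBS liver lay between it and the 5 LPS livers. Saa2 was at 68.9, 18994, 18767, 12856, 26936, 2469 and 16724 TPM in the same order. It was the member with the highest level in each of the 5 LPS livers, where it ranked first or second among the 5298 listed genes, whereas Hp led in both PBS livers. Saa1 made up 24.3% of the sum of both genes in WT liver with PBS, 15.4% to 25.7% in the 5 LPS livers and 32.2% in TG2-KO liver with PBS.

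**Figure D1:**
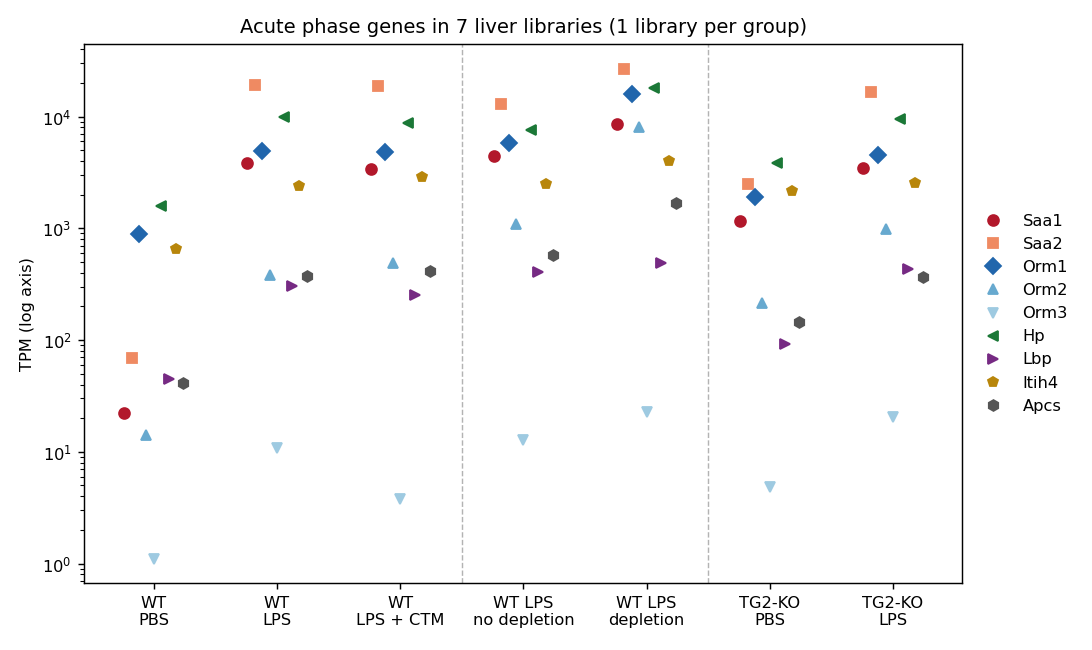
Level in TPM (log axis) of the 9 acute phase genes in each of the 7 liver libraries, 1 point per gene and library, with dashed lines between extraction dates. Every gene is lowest in the WT PBS library and highest in the macrophage-depleted LPS library, and all are higher in the TG2-KO PBS than in the WT PBS library.

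Orm1, Orm2 and Orm3 encode the alpha-1-acid glycoproteins (orosomucoids), lipocalin-fold carriers of basic and neutral small molecules in plasma. They lie side by side on the plus strand of chromosome 4, Orm1 from 63344560 to 63348163, Orm3 from 63356162 to 63359511 and Orm2 from 63362449 to 63365878. The transcripts of Orm1 and Orm2 were 91.0% identical and shared 27.5% of their 31-base words, against 9.4% for Orm2 and Orm3 and 4.7% for Orm1 and Orm3. The division of reads among these genes, and so the ratio of Orm1 to Orm2 below, is therefore uncertain. The windows of Orm2 (chr4:63362199-63362448) and Orm3 (chr4:63355908-63356157) are shown because these neighbours, 89.0% identical over 245 aligned bases there, stood at very different levels. Capitals again mark C/EBP matches.
Orm2: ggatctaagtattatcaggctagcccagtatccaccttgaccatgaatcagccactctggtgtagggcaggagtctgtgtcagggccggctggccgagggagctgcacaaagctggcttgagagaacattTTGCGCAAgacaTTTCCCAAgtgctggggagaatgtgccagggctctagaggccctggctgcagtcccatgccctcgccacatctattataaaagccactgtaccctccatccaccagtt
Orm3: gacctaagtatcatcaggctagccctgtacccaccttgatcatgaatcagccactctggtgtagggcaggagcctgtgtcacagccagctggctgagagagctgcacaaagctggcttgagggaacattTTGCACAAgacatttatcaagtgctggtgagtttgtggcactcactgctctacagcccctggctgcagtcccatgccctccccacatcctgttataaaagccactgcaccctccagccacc
Orm2 holds matches 120 and 108 bases before its start, and Orm3 holds 1, 121 bases before.

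Orm1 was at 891, 4960.1, 4791, 5833, 16035, 1911 and 4563 TPM, in the order WT PBS, WT LPS, LPS plus CTM, LPS without depletion, LPS with depletion, TG2-KO PBS and TG2-KO LPS. With LPS the 4 livers without depletion spanned 1.28-fold, and the depleted liver stood above them. Orm2 was at 14.0, 384, 492, 1085, 8083, 214 and 989 TPM in this order. It spanned 2.83-fold over the same 4 livers and stood far above all of them in the depleted liver. Orm3 was the lowest member in every library, at 1.10, 10.7, 3.77, 12.7, 22.6, 4.82 and 20.7 TPM. The ratio of Orm1 to Orm2 was 63.6 in the WT PBS liver, 4.61 to 12.9 in the 4 LPS livers without depletion, 1.98 in the depleted liver and 8.95 in the TG2-KO PBS liver.

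Hp encodes haptoglobin, which binds free haemoglobin for clearance through the macrophage receptor CD163. It lies on the minus strand of chromosome 8 from 109575128 to 109579172. In TPM, Hp was at 1579 in the WT PBS liver, 9965 in the WT LPS liver, 8833 when CTM was added, 7577 and 18202 in the undepleted and depleted livers, and 3805 and 9594 in the TG2-KO livers given PBS and LPS. It was already the 13th highest of the listed genes in WT liver with PBS. The 4 LPS livers without depletion spanned 1.32-fold.

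Lbp encodes the LPS-binding protein, which hands LPS to CD14 (chromosome 2, 158306493 to 158332852, plus strand). Its levels in the 7 livers were 45.2, 305, 252, 408, 493, 92.4 and 430.05 TPM, in the order used for Orm1. The depleted liver was highest but close to TG2-KO liver with LPS. Apcs encodes serum amyloid P, a pentraxin that binds microbial surfaces, chromatin and amyloid (chromosome 1, 172893961 to 172895041, minus strand). Its levels were 41.3, 377, 418, 574, 1698, 145 and 365 TPM, and the depleted liver stood apart from the other LPS livers.

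Itih4 encodes inter-alpha-trypsin inhibitor heavy chain 4, a plasma glycoprotein cleaved by kallikrein (chromosome 14, 30886476 to 30902353, plus strand). It was at 654, 2393, 2908, 2497, 3999, 2156 and 2565 TPM. Itih4 had the smallest LPS difference of the members, and its TG2-KO PBS level lay near its LPS levels. Hp, Lbp, Itih4 and Apcs share no 31-base word with another member.

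Promoter windows were found for 6 of the 9 members, and none for Orm1, Hp and Lbp. In the windows, which also take in 50 bases after the start, 4 of 6 members held a C/EBP match, against 40.7% of all 32851 windows of the same length. These 4 are the pairs Saa1 with Saa2 and Orm2 with Orm3. The bases before their starts were 95.6% and 89.0% identical, so the 4 windows are not independent. A STAT match (TTCNNNGAA, both strands) was found in 2 of 6, against 8.3% of all windows. These were TTCCGAGAA 51 bases before the start of Itih4 and TTCTAGGAA 244 bases before that of Apcs. No member window held the NF-kB motif, which 8.46% of all windows held. The C/EBP, STAT and NF-kB matches are descriptions of letters and not binding sites.

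In WT liver all 9 members were higher by at least 1 with LPS, beside 20.6% of the listed genes, a comparison that chose the listed genes. The ratio of LPS to PBS ran from 3.66 for Itih4 to 174 for Saa1 and 276 for Saa2, with 27.4 for Orm2, 9.75 for Orm3, 9.13 for Apcs, 6.76 for Lbp, 6.31 for Hp and 5.57 for Orm1. The 9 genes together held 3317 TPM, or 0.332% of all TPM, in WT liver with PBS and 41235 TPM, or 4.12%, with LPS. Saa1 and Saa2 made up 2.75% of the members' sum with PBS and 55.4% with LPS. Markers of other cells differed between the same 2 livers. The 10 listed neutrophil and monocyte markers were all higher with LPS (94.4 against 2.5 TPM in sum), 10 of 11 listed Kupffer cell markers lower (60.9 against 159 TPM) and 8 of 9 listed endothelial markers lower (46.4 against 143 TPM). Their part in the members' levels was not tested.

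**Figure D2:**
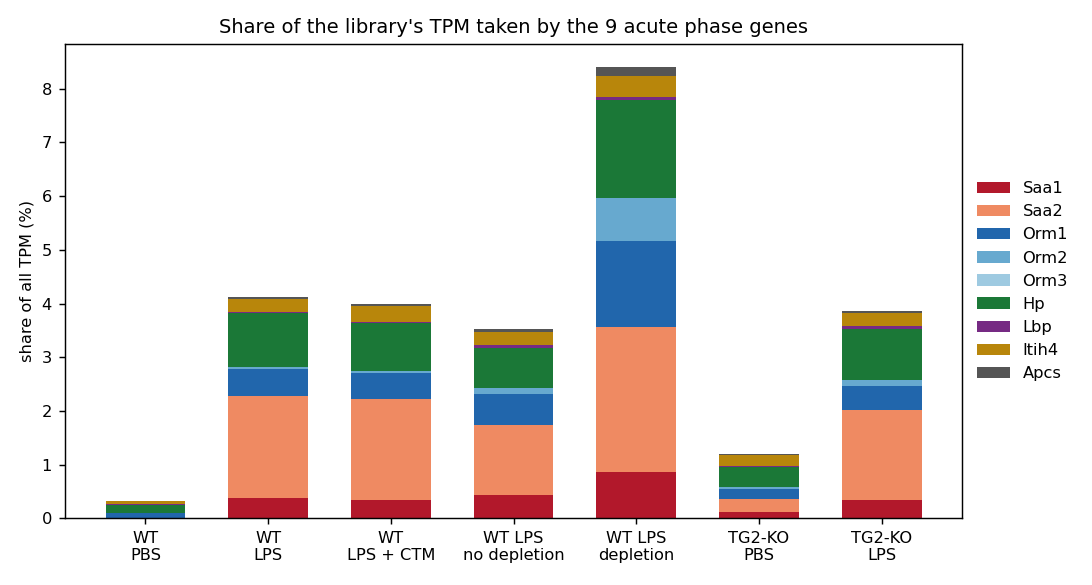
Share of all TPM of a library (%) held by the 9 acute phase genes, stacked by gene, with 1 bar per liver library. The bars stand at 0.332% in the WT PBS library, 1.2% in the TG2-KO PBS library, 3.53% to 4.12% in the 4 LPS libraries without depletion and 8.41% in the macrophage-depleted LPS library.

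In TG2-KO liver without LPS, all 9 members stood higher than in WT liver without LPS by at least 1, beside 2.94% of the listed genes. The differences were 5.66 for Saa1, 5.14 for Saa2, 3.84 for Orm2, 1.79 for Apcs, 1.72 for Itih4, 1.47 for Orm3, 1.27 for Hp, 1.10 for Orm1 and 1.02 for Lbp. Their median was 1.72, against -0.19 over all listed genes. Most listed genes were lower with LPS in WT liver, and the WT PBS library took part in choosing them. Among the 1459 genes listed as higher with LPS, as the members are, 8.98% were higher by at least 1 in TG2-KO than in WT liver with PBS, with a median of 0.09. The members' sum was 3.61 times that of the WT PBS liver. The levels of TG2-KO PBS liver were 84.1% of those of TG2-KO LPS liver for Itih4, between 34.1% and 41.9% for Saa1, Hp, Apcs and Orm1, and between 14.8% and 23.3% for Saa2, Lbp, Orm2 and Orm3. In WT liver the share of the LPS level present with PBS was 0.363% for Saa2 and 0.576% for Saa1, and at most 27.3%, for Itih4.

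Other genes of the response divided in this comparison. Of 24 listed genes of a 30-gene list of other positive acute phase genes, 13 were higher and 2 lower by at least 1, with a median of 1.16. Mt2 and Mt1, which encode metal-binding metallothioneins, were higher by 3.65 and 3.11, Lcn2, the siderophore-binding lipocalin 2, by 3.35, and Steap4, a metalloreductase, by 3.18. The fibrinogen chains Fga, Fgb and Fgg were higher by 1.46, 1.29 and 1.49. Not all members of that list moved this way. Saa3, another serum amyloid A gene, was at 6.46 TPM against 18.1 TPM, Hamp2, a hepcidin gene, at 102.00 against 729.78 TPM, and Cd14, the LPS co-receptor, at 2.57 against 2.45 TPM.

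Genes upstream of the members in the same 2 PBS livers were mixed as well. Of 34 listed genes of a 48-gene list of cytokines, receptors and transcription factors, 9 were higher and 1 lower by at least 1, with a median of 0.17. The interleukin 1 receptor gene Il1r1 was at 60.03 against 7.41 TPM, Stat3, the transcription factor downstream of interleukin 6, at 75.1 against 18.5 TPM, and the immediate early gene Egr1 at 13.3 against 2.19 TPM. Il6 was listed at 0 in both livers, and Tnf was at 0.18 against 0.05 TPM. Markers of other cells also differed between these livers. All 10 listed of 16 neutrophil and monocyte markers were higher, 4 of them by at least 1, and their sum was 32.4 against 2.5 TPM, with S100a9 at 12.2 against 0.22 TPM and Ngp at 0.58 TPM against a listed 0. The 11 listed of 14 Kupffer cell markers summed to 109 against 159 TPM. Their part in the members' levels was not tested.

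**Figure D3:**
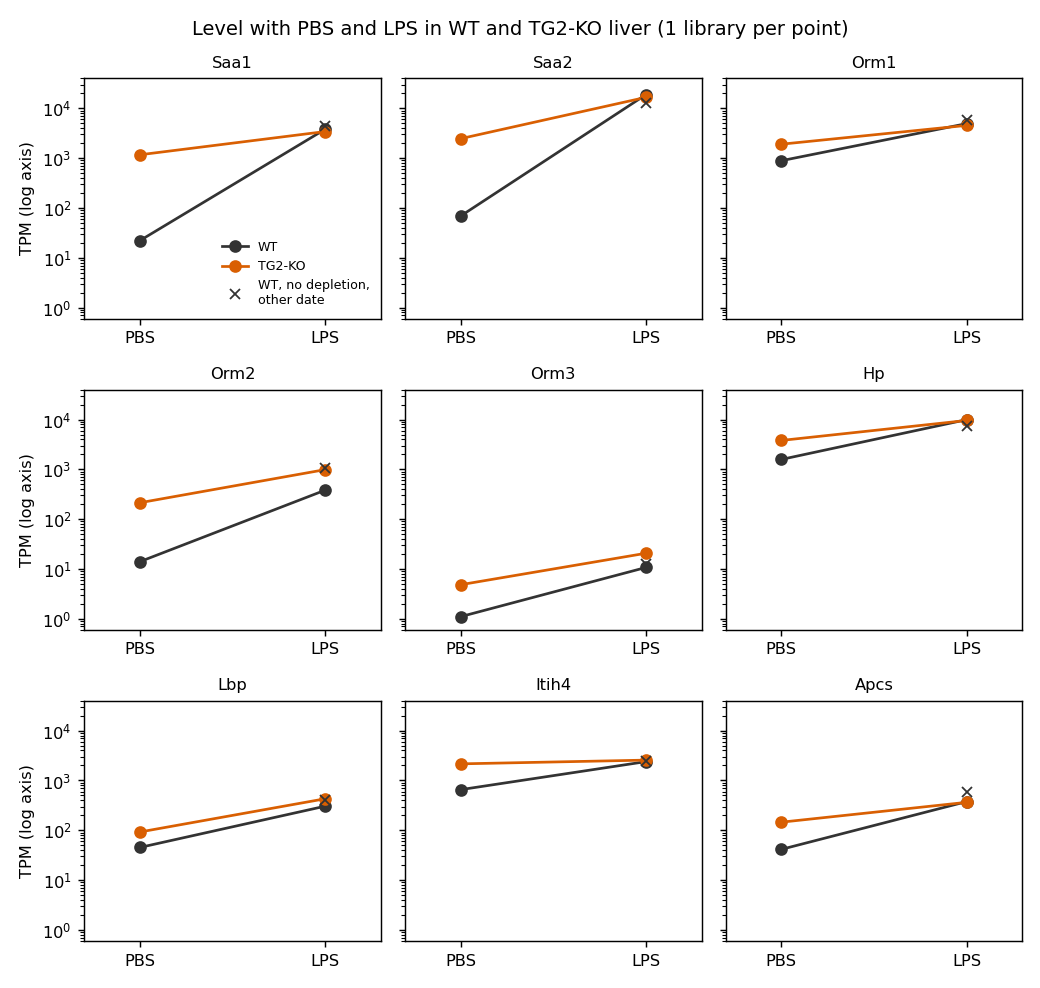
Level in TPM (log axis, the same scale in every panel) of each acute phase gene with PBS and LPS in WT and TG2-KO liver, 1 library per point, with a cross for the WT LPS liver without depletion of another date. The genotypes are apart with PBS, by 1.02 (Lbp) to 5.66 (Saa1) on the log2 scale, and close with LPS except for Orm2 and Orm3.

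In TG2-KO liver 8 of 9 members were higher with LPS than with PBS by at least 1, beside 14.8% of the listed genes and 52.9% of the 1459 genes higher with LPS in WT liver. The differences were 2.76 for Saa2, 2.21 for Orm2 and Lbp, 1.90 for Orm3, 1.55 for Saa1, 1.33 for Hp, 1.32 for Apcs, 1.26 for Orm1 and 0.25 for Itih4. Each of the 9 genes had a smaller LPS difference than in WT liver, as did 77.7% of the 1459 genes, which were listed for their difference in WT liver, so that a smaller value in TG2-KO liver is favoured by that choice. Over these genes the median of the TG2-KO difference minus the WT difference was -0.40. The TG2-KO difference minus the WT difference was -5.82 for Saa1, -5.33 for Saa2, -2.47 for Orm2 and, nearest to 0, -0.52 for Lbp. This difference of differences was not tested, since each group is 1 library.

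With LPS, 1 of 9 members was higher by at least 1 in TG2-KO than in WT liver, beside 4.27% of the listed genes. Among the 1459 genes higher with LPS in WT liver the share was 1.23%, with a median of -0.27. The WT LPS library took part in choosing these genes, which favours lower values in TG2-KO liver. The member was Orm2, by 1.36, followed by Orm3 with 0.89 and Lbp with 0.49. The other 6 members lay between -0.18 and 0.10. Orm2 was at 989 TPM in TG2-KO liver, between the 384 and 1085 TPM of the 2 WT LPS livers with macrophages. Against the latter WT liver, a reference chosen after the values were seen, its difference was -0.13. Against the former it was 0.97 after median-of-ratios scaling between libraries. That scaling rests on genes listed for their difference between LPS and PBS in WT liver. The comparisons of TG2-KO with WT and of LPS with PBS share libraries, so their values are set side by side only.

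In macrophage-depleted liver with LPS, 5 of 9 members were higher by at least 1 than in the undepleted liver of the same date, beside 2.59% of the listed genes and 2.88% of the 1459 genes higher with LPS in WT liver. The difference was 2.90 for Orm2, 1.56 for Apcs, 1.46 for Orm1, 1.26 for Hp and 1.07 for Saa2. Saa1 (0.96), Orm3 (0.79), Itih4 (0.68) and Lbp (0.27) were also higher but by less than 1. The median of the members was 1.07, against -0.04 over all listed genes, and their sum was 84099 against 35285 TPM, a ratio of 2.38. Against the WT LPS liver of the other date, an alternative added after the values were seen, 5 members were again higher by at least 1, with Saa1 (1.17) and Orm3 (1.01) in place of Saa2 (0.50) and Hp (0.87), and Orm2 at 4.39.

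**Figure D4:**
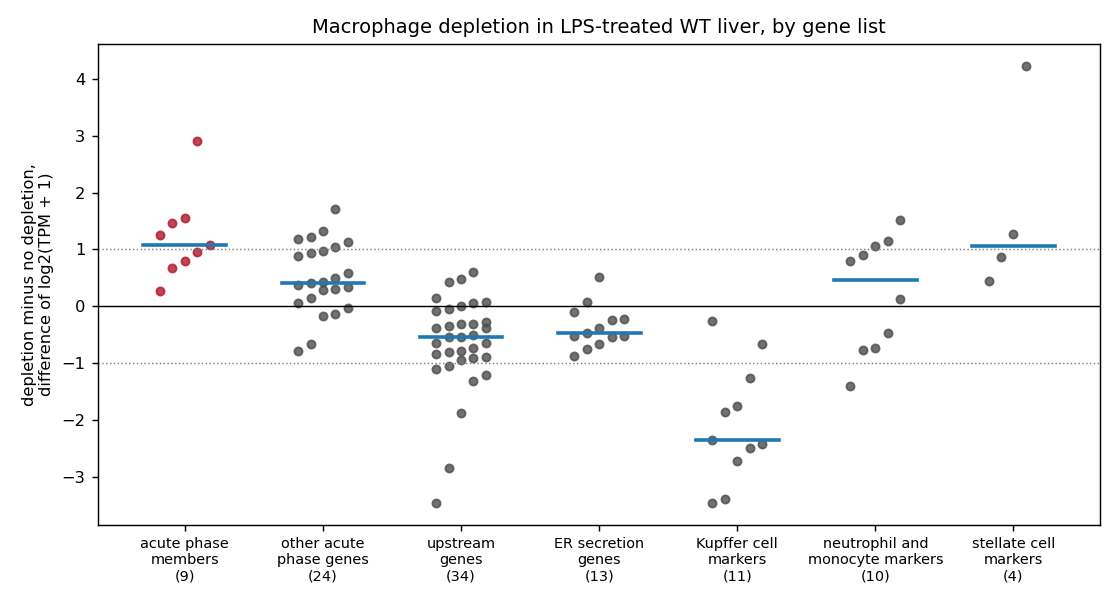
Difference of log2(TPM + 1) between depleted and undepleted LPS liver for the listed genes of each list, 1 point per gene with the number of genes in parentheses, and a bar at the median. The members (red) lie between 0.27 and 2.90, while the Kupffer cell markers have a median of -2.35 and the upstream genes one of -0.55.

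The cytokine genes that act on hepatocytes stood lower in the depleted liver. Of the 34 listed upstream genes none was higher by at least 1 and 7 were lower, with a median of -0.55 and 28 below 0. Among the 1459 genes higher with LPS in WT liver, 17.8% were lower by at least 1, with a median of -0.39. Il1a was at 0.96 against 20.6 TPM, Il1b at 2.34 against 23.05 TPM, Tnf at 2.01 against 10.1 TPM and Il6 at 0.33 against 1.76 TPM. Stat3 (106 against 101 TPM) and Socs3 (104 against 100.07 TPM), the latter an inhibitor induced by STAT3, were nearly level. Of the 24 listed other acute phase genes 6 were higher and none lower by at least 1, with a median of 0.41. They included Hpx, the haem carrier hemopexin (17942 against 8215 TPM), Saa3 (12543 against 5554 TPM) and A2m, the protease inhibitor alpha-2-macroglobulin (167 against 50.4 TPM), whereas Crp, the C-reactive protein gene, was at 592 against 944 TPM and Serpina3n, a protease inhibitor, at 6099 against 6896 TPM.

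Cell type markers moved with the depletion. All 11 listed Kupffer cell markers were lower, 9 of them by at least 1, with a sum of 20.5 against 138 TPM and none at 0. Clec4f, a Kupffer cell lectin, was at 0.21 against 12.3 TPM. Of the 10 listed neutrophil and monocyte markers 6 were higher and 4 lower, with a sum of 252 against 142 TPM. S100a9 was at 95.02 against 45.05 TPM and Csf3r, the receptor for granulocyte colony-stimulating factor, at 2.87 against 9.21 TPM. All 4 listed of 10 stellate cell markers were higher, with a sum of 39.0 against 8.1 TPM, of which Des, the desmin gene, held 24.5 against 0.36 TPM, and 8 of 9 listed endothelial markers were higher (95.3 against 62.1 TPM). The 3 listed hepatocyte markers differed in direction. G6pc, of glucose production, was at 26.6 against 2.47 TPM, Tat, a tyrosine-degrading enzyme, at 1925 against 1363 TPM and Cyp2e1, a cytochrome P450, at 2356 against 2605 TPM. The part of these cells in the members' levels was not tested.

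With CTM added to LPS, none of the 9 members was higher by at least 1, beside 0.698% of the listed genes, and 1 was lower, beside 0.906%. The member that was lower was Orm3, at 3.77 against 10.7 TPM, a difference of -1.30. Orm2 (0.36), Itih4 (0.28) and Apcs (0.15) were slightly higher, and Saa2 (-0.02), Orm1 (-0.05), Hp, Saa1 (both -0.17) and Lbp (-0.28) slightly lower. The median was -0.05, against 0.02 over all listed genes and -0.17 over the 1459 genes higher with LPS in WT liver. Of these 1459 genes 0.343% were higher and 2.74% lower by at least 1. The WT LPS library took part in choosing them, which favours lower values with CTM. The members' sum was 0.967 times that with LPS alone. Among the 24 other acute phase genes none was higher and 1 was lower by at least 1, Crp, at 329 against 854 TPM. Among the 34 upstream genes none was higher and 1 was lower by 1, beside 2.74% of the 1459 genes. This was Nfkb2, which encodes a subunit of NF-kB, at 9.37 against 19.7 TPM. Rela, another subunit, was at 83.9 against 136 TPM, a difference of -0.69. Cell markers differed between these livers as well. With CTM all 11 listed Kupffer cell markers were higher, none by at least 1 (88.9 against 60.9 TPM in sum). So were all 10 listed neutrophil and monocyte markers, none by at least 1 (129 against 94.4 TPM). Their part in the members' levels was not tested.

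The 2 WT livers with LPS and macrophages came from different extraction dates, and the labels give the LPS dose for 1 of them only. The 11 listed Kupffer cell markers were all higher in the depletion pair's undepleted liver, 5 of them by at least 1. Their sum was 138 against 60.9 TPM. Of the members 1 (Orm2, 1.50) was higher by at least 1 in the depletion pair's undepleted liver, beside 5.91% of the listed genes. Among the 1459 genes higher with LPS in WT liver the share was 1.17%. The other 8 members lay between -0.56 (Saa2) and 0.60 (Apcs). Over the 4 LPS livers without depletion the highest level was 1.22 times the lowest for Itih4, 1.28 to 1.57 times for Orm1, Saa1, Hp, Saa2 and Apcs, 1.71 times for Lbp, 2.83 times for Orm2 and 5.49 times for Orm3. These 4 livers also differ in genotype and CTM. The lowest Orm3 level, 3.77 TPM, was that with CTM and the highest, 20.7 TPM, that of TG2-KO liver.

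**Figure D5:**
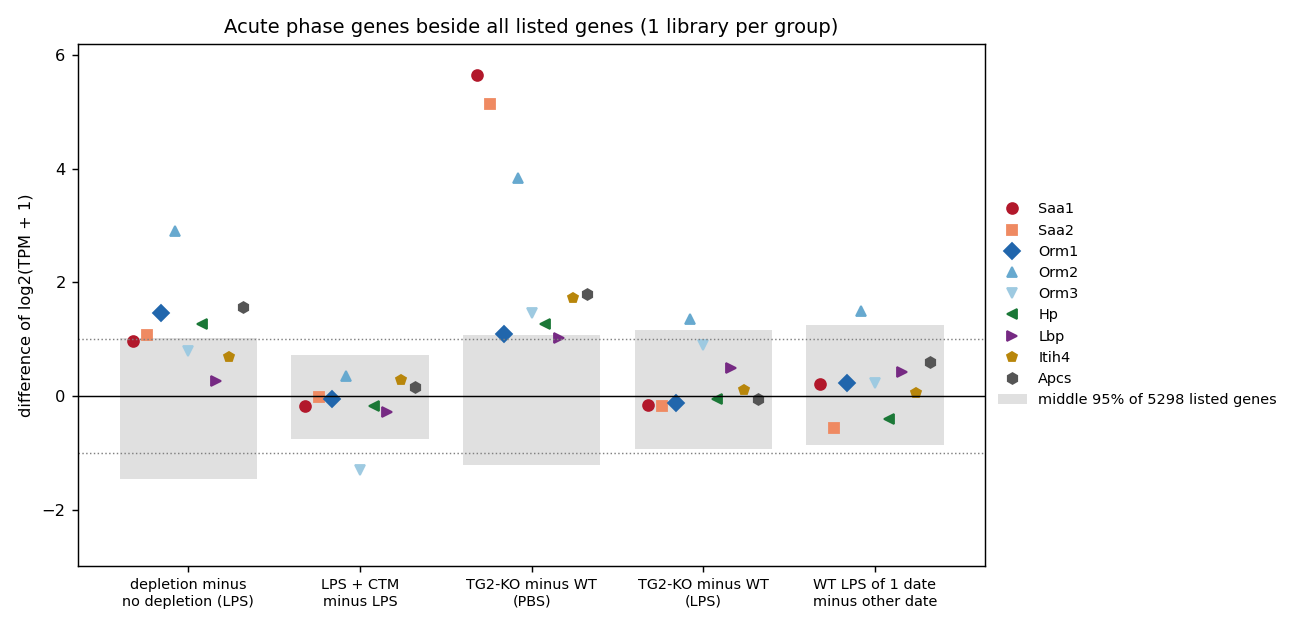
Difference of log2(TPM + 1) of each acute phase gene in 5 comparisons of single liver libraries, with a grey band for the middle 95% of the 5298 listed genes and dotted lines at -1 and 1. For TG2-KO minus WT with PBS 8 of the 9 genes lie above the band (Lbp, at 1.02, lies inside it), with CTM only Orm3 lies outside, and Orm2 lies above the band for TG2-KO minus WT with LPS and between the dates.

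The listed genes whose pattern over the 7 livers was most like that of the members were found by the root mean square difference of centred log2(TPM + 1) values from the members' mean, among 2124 candidates. They were S100a8 (0.26), a gene listed only under the number 105246811 (0.48), S100a9 (0.50), Timp1 (0.54) and Lrg1 (0.56). S100a8 and S100a9 encode the calprotectin subunits of neutrophils, Timp1 an inhibitor of metalloproteinases and Lrg1 a leucine-rich plasma glycoprotein. S100a8 was at 1.13, 25.9, 43.6, 45.1, 85.1, 10.9 and 41.6 TPM, in the order used for Orm1. The members themselves lay 0.36 (Apcs) to 1.35 (Saa2) from their own mean.

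In RAW264.7 cells the members were nearly or wholly silent except for Hp. Orm1, Orm2, Orm3 and Apcs were listed at 0 in all 14 libraries, and Saa1, Saa2, Lbp and Itih4 were listed at 0 in 11, 12, 12 and 6 of 14, with highest levels of 0.494, 0.259, 0.0762 and 0.252 TPM. Hp was the only member with a mean of at least 1 TPM and the only one tested. The p-values below rest on the spread between libraries of the same group, pooled over all groups of an experiment. In limma this spread is also drawn towards a trend over all genes tested. The labels do not tie the 2 libraries of a group to separate cultures.

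At 24 h the TPM of Hp were 4.54 and 4.40 in the PBS libraries, 0.869 and 0.735 in the LPS libraries, and 0.472 and 1.50 in those given LPS plus CTM. All PBS values lay above the others. Hp fell with LPS (4.47 ± 0.0944 against 0.802 ± 0.0947 TPM, SD, n = 2 each), by -1.60 ± 0.28 (SE) on the log2(TPM + 1) scale with limma adjusted p = 0.00173, in an experiment where 66% of 11030 genes passed. Between LPS plus CTM and LPS the difference was 0.09 ± 0.28 (limma adjusted p = 0.837, with 25.6% of genes passing). It did not pass, and the LPS plus CTM values spanned those of LPS.

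At 12 h the TPM of Hp were 1.72 and 1.70 in WT cells given PBS, 1.11 and 0.724 in WT cells given LPS, 2.77 and 2.39 in Vim-KO cells given PBS, and 0.22 and 0.185 in Vim-KO cells given LPS. In either genotype the LPS values lay below the PBS values. The change with LPS was -0.51 ± 0.17 in WT cells (limma adjusted p = 0.027, with 70.9% of 11115 genes passing) and -1.57 ± 0.17 in Vim-KO cells (limma adjusted p = 8.09e-05, with 66.4% passing). The change was larger in Vim-KO cells by -1.07 ± 0.24 (limma interaction, adjusted p = 0.0186, with 20.6% passing). The WT change and the interaction both missed the threshold when libraries were left out, the WT change without either WT PBS library (adjusted p 0.0875 and 0.0803) or the WT LPS library 2 (-0.36, 0.144), and the interaction without either WT PBS library (0.0589 and 0.0611), the WT LPS library 1 (0.0599) or the Vim-KO PBS library 1 (0.0609). Over 9 alternatives the adjusted p of the WT change ran from 0.00562 to 0.152, the last with median-of-ratios scaling, where the change was -0.30.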

How the data were processed

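Gene levels in liver (7 libraries) and RAW264.7 cells (14 libraries) were taken as TPM, which the authors made from stranded mRNA libraries with Salmon on mm10/GRCm38, per the submitters' processing notes. Versions and the annotation are not given in the sources used here. Liver libraries are single, so log2(TPM + 1) differences carry no test, and those of at least 1 are counted. For RAW264.7, limma 3.58.1 (R 4.3.3) was fitted to log2(TPM + 1) of the genes averaging at least 1 TPM over an experiment, with 1 model per experiment and a variance trend. Adjustment (Benjamini-Hochberg) ran over every gene tested, at 0.05. The model was checked on simulated data, with a log2 change of 1 planted in 200 genes. It recovered 79.5% of them at 24 h (10 of 169 calls false) and 90.5% at 12 h (5 of 186 calls false). Changes were planted only in genes with a higher mean level than Hp, so the check does not cover Hp. At 24 h the LPS and CTM columns could be tied to a group but not to a labelled replicate. Depth is unknown from TPM.

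The members and gene lists were chosen with earlier results of these data known. All members are named. From each list the rule names the 3 genes with the highest level and up to 2 with the largest difference per comparison, and the text gives part of these with some others chosen after their values were seen. Positions and transcripts are of GENCODE on GRCm38, and promoters (250 bases before to 50 after the start) of RefSeq GRCm38.p6. Python 3.11.15 with pandas 2.3.3, Biopython 1.88 and matplotlib 3.10.9 was used. Alternatives were a pseudocount of 0.1, other filters, median-of-ratios scaling, a minimum difference of 2, limma without the trend, a replicate block and leaving out libraries.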

Additional observations from a re-analysis of the deposited data

Results flagged for a closer look

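Hp in RAW264.7 cells at 12 h is set apart because the LPS change differed between the genotypes by the test of the difference itself. The change in Vim-KO cells minus that in WT cells was -1.07 ± 0.24 on the log2(TPM + 1) scale (limma adjusted p = 0.0186, with an adjusted p of 0.00542 to 0.0791 over 13 alternatives). Hp was lower with LPS in 2 of 2 libraries of either genotype, and its levels lay between 0.185 and 2.77 TPM, near the minimum of 1 TPM that the test required. Of the genes tested, 20.6% passed the same test.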

How the results depend on the processing

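In liver, a pseudocount of 0.1 (63 values of members) and a minimum of 10 TPM in 1 of the 2 libraries (62 values) left every member on the same side of a difference of 1. Median-of-ratios scaling over 2888 genes moved 3 of 63 values across it. Such scaling takes most genes as unchanged, but all of these were listed for a difference between LPS and PBS in WT liver. Of the 5298 listed genes 3839 were lower with LPS, so the factors of the WT PBS and WT LPS libraries partly reflect that choice. For genes well above 1 TPM scaling adds 1.22 in WT and 0.47 in TG2-KO liver for LPS against PBS, 0.35 and -0.40 for TG2-KO against WT with PBS and with LPS, -0.49 between the WT LPS livers of different dates, and less than 0.1 in size for depletion and CTM. Low genes move by other amounts (Orm3 from 2.48 to 3.26 for LPS in WT liver). It left 0 members higher in TG2-KO than in WT liver with LPS (Orm2 0.97, against 1.36). For depletion it put Saa1 at 1.02, and between the dates Saa2 at -1.06. A minimum of 2 left 3 members higher with LPS in TG2-KO liver, 1 with depletion (Orm2), 3 in TG2-KO against WT liver with PBS, 0 with LPS and 0 between the dates, by construction. With the undepleted WT LPS liver as the reference, chosen after the data were seen, 0 members were higher in TG2-KO liver with LPS, and Orm2 was at -0.13.

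For Hp in RAW264.7 cells, leaving out 1 library gave changes of -1.66 to -1.55 (LPS, 24 h), -0.29 to 0.48 (CTM), -0.65 to -0.36 (LPS in WT cells, 12 h), -1.65 to -1.50 (LPS in Vim-KO cells) and -1.21 to -0.92 (interaction). With no filter the WT change of -0.51 and the interaction of -1.07 had adjusted p of 0.0779 and 0.0791. There limma warned that most residual variances were 0. With median-of-ratios scaling the WT change was -0.30 (adjusted p = 0.152), and the cause was not tested. Genes passing for CTM were 1607 with no filter and 1094 to 2330 with 1 library left out, against 2823. Genes passing for the interaction were 1109 with no filter and 1219 to 2649 with 1 library left out, against 2292. The numbers of the 12 h libraries did not pair them (correlations of -0.22 to 0.10 over 6 pairs of groups). With a replicate block the changes were -0.51 (adjusted p = 0.0322) in WT cells, -1.57 (0.000214) in Vim-KO cells, -1.07 (0.0287) for the interaction and 0.09 for CTM, and no call of Hp changed.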

Other observations

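Genes of the secretory pathway, which folds and exports the plasma proteins, followed the members in some comparisons and not in others. Of 30 such genes 13 are listed, all because they were higher with LPS in WT liver. In TG2-KO liver 1 of 13 was higher by at least 1 with LPS, with a median of 0.36. Of the 1459 genes higher with LPS in WT liver 52.9% were, with a median of 1.05. In TG2-KO against WT liver with PBS 12 of 13 stood higher, 1 of them by at least 1, with a median of 0.65, and with LPS all 13 stood lower, 3 by at least 1, with a median of -0.73. Of the 1459 genes, 8.98% were higher by at least 1 with PBS (median 0.09), and 6.65% were lower by at least 1 with LPS (median -0.27). The WT PBS and WT LPS libraries took part in choosing all these genes. That choice favours higher TG2-KO values with PBS and lower ones with LPS. In the depleted liver 11 of 13 were lower and none by as much as 1, beside 17.8% of the 1459 genes. Hspa5, the main chaperone of the endoplasmic reticulum, was at 330.14 TPM there against 388 TPM, while the members' sum was 2.38 times as high.

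Genes for receptors and partners of the acute phase proteins stood lower in the depleted liver in 5 of 10 cases by at least 1. For depletion, 17.8% of the 1459 genes higher with LPS in WT liver were lower by at least 1. Hmox1, the haem-degrading enzyme, was at 38.9 against 188 TPM, Fcgr4, an Fc receptor, at 2.98 against 16.9 TPM and Fpr2, a receptor for serum amyloid A, at 2.91 against 14.1 TPM. Cd163, the haptoglobin receptor and a Kupffer cell marker, was at 0.01 against 0.21 TPM. Of the 10 genes 3 stood higher, 1 of them by at least 1. This was Hpx, at 17942 against 8215 TPM. Cd14, at 540.41 against 291 TPM, and Fcgr2b, another Fc receptor, at 20.2 against 9.81 TPM, were higher by less than 1.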
